A study of Drosophila melanogaster with 8 samples.

Results

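Early and mature somatic cyst cells of the Drosophila melanogaster testis were compared by sequencing the poly(A)+ RNA of cells sorted for green fluorescent protein (GFP). The comparison rests on 4 of the 8 libraries of the study, chosen by their labels: 2 libraries of cells sorted from tj-GAL4 (Kyoto stock) x UAS-GFP (Bloomington stock) testes, labelled early, and 2 of cells sorted from testes of a published eya-GAL4 line x UAS-GFP, labelled mature. The other 4 libraries are the unsorted suspensions of the same crosses, 2 per cross, and served only to look for differences present before the sort. All flies carried a GAL4 driver and the same UAS-GFP reporter, so a driver and its cross cannot be told apart from a cyst cell stage. Fly age and the number of testes per library were not known for this comparison, and the replicates are labelled biological replicates with nothing said of separate dissections, so the p-values measure the spread between these libraries only. Adjusted p-values are from edgeR's quasi-likelihood test with Benjamini-Hochberg adjustment over all 11683 genes tested in the 4 sorted libraries, two-sided, and genes with an adjusted p under 0.05 are those called. Levels are in CPM, the reads of a gene scaled to the size of its library, and differences are log2 fold changes of tj sorted over eya sorted cells ± standard error (SE), with n = 2 libraries per group.

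Cyst cells are the support cells of the testis. A pair of them encloses each group of germ cells from the stem cell niche to the end of spermatogenesis. Their stem cells divide beside the niche under JAK-STAT and Hedgehog signals, and their daughters leave the cell cycle, grow around the germ cells and seal them off with junctions. Tj, a Maf transcription factor, and Zfh1, a zinc finger and homeodomain factor needed for stem cell self-renewal, mark the early end of the lineage, and Eya, a transcription cofactor with phosphatase activity, accumulates toward the mature end.

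The 4 sorted libraries held 10771009 to 25344721 gene counts, and the mitochondrially encoded genes took 19.6% and 11.01% of them in the tj sorted libraries, against 15.1% and 19.8% in the eya sorted ones. The first principal component, with 69.4% of the variance, placed the tj sorted libraries at -28.3 and -55.3 and the eya sorted libraries at 33.8 and 49.8. The tj sorted replicates were further apart than the eya sorted ones, with 1118 genes differing by more than 2-fold between the tj replicates and 515 between the eya replicates. Among the sorted libraries tj replicate 1 carries a 6-base index and the other 3 an 8-base index. The fit without tj sorted replicate 1 is therefore also the one within the 8-base libraries. It called more genes than the fit of all 4 sorted libraries, and whether the index length made a difference was not tested. Of the unsorted libraries, tj replicate 2 stood apart, with 31.7% mitochondrially encoded counts against 4.68% to 10.97% in the other 3.

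The defining markers fitted the labels in part. The early markers tj, zfh1 and stg were higher in tj sorted cells, by 2.15-fold, 2.96-fold and 2.46-fold, and the mature marker sad was lower, at 0.0936 times its level in eya sorted cells. The gene eya, after which the mature driver is named, did not separate the groups. Of the genes tested, 711 (6.09%) were called higher in tj sorted cells and 567 (4.85%) lower.

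The tj gene (FBgn0000964, chr2L:19464267-19467758, dm6) stood at 45.2 and 28.9 CPM in tj sorted cells, against 19.9 and 14.8 CPM in eya sorted cells. Both tj sorted libraries lay above both eya sorted libraries, and the rise was 1.10 ± 0.33 on the log2 scale (adjusted p = 0.0137). All 4 sorted libraries were far above the suspensions of both crosses, at 1.53 to 2.56 CPM. zfh1 (FBgn0004606, chr3R:30765926-30789202) stood at 59.6 and 41.7 CPM in tj sorted cells, against 18.2 and 16.2 CPM in eya sorted cells. The groups did not overlap, the rise was 1.57 ± 0.34 (adjusted p = 0.000163), and the eya sorted libraries were below all 4 suspensions, at 19.9 to 45.7 CPM. stg (FBgn0003525, chr3R:29251826-29255800), the Cdc25 phosphatase that lets cells enter mitosis, stood at 38.3 and 24.4 CPM in tj sorted cells, against 12.2 and 13.3 CPM in eya sorted cells. It rose by 1.30 ± 0.33 (adjusted p = 0.0023) and was at 2.68 to 3.85 CPM in the suspensions, below every sorted library.

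The list of 12 early cyst genes had 6 that rose and none that fell, with a median of 1.02, against 0.11 for all genes tested. Besides the 3 markers, these were CadN, which encodes N-cadherin, chinmo, a transcription factor that keeps cyst stem cells and their male identity, and ptc, the Hedgehog receptor and a target of the pathway. CadN stood at 99.1 and 76.2 CPM in tj sorted cells, against 34.1 and 19.8 CPM in eya sorted cells, a rise of 1.72 ± 0.35 (adjusted p = 7.17e-05). chinmo stood at 163 and 121 CPM in tj sorted cells, against 64.9 and 62.2 CPM in eya sorted cells, a rise of 1.17 ± 0.36 (adjusted p = 0.0204). Both eya unsorted libraries and tj unsorted replicate 1 held more chinmo than any sorted library, at 219 to 241 CPM. ptc stood at 37.0 and 27.8 CPM in tj sorted cells, against 16.3 and 13.1 CPM in eya sorted cells, a rise of 1.15 ± 0.33 (adjusted p = 0.00878). The JAK-STAT receptor dome, its transcription factor Stat92E and its target Socs36E did not pass the test, at -0.33 ± 0.38, 0.31 ± 0.38 and -0.19 ± 0.35.

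The calls of these 6 rises depended on the eya sorted libraries. Without an eya library, the spread came from the tj sorted replicates alone, which were further apart. Without eya sorted replicate 2 none of the 12 early genes was called (adjusted p = 0.65 for tj, 0.18 for zfh1, 0.19 for stg, 0.35 for CadN, 0.64 for chinmo and 0.54 for ptc). Without eya sorted replicate 1 only zfh1 and CadN of the 12 were called (adjusted p = 0.047 and 0.013), and without tj sorted replicate 1 tj was lost (adjusted p = 0.073). In each of those fits the median of the 12 genes stayed between 0.77 and 1.21.

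The mature list behaved otherwise, with 1 fall and no rise among its 9 genes and a median of -0.03. The single called gene was sad (FBgn0003312, chr3R:11877235-11879754), a cytochrome P450 of the late steps of ecdysone synthesis. It stood at 2.24 and 1.89 CPM in tj sorted cells, against 19.7 and 24.4 CPM in eya sorted cells, a fall of -3.42 ± 0.37 (adjusted p = 1.37e-17). All 4 suspensions were below every sorted library, at 0.486 to 1.501 CPM, and the fall was called whichever sorted library was left out. By contrast eya stood at 211 and 146 CPM in tj sorted cells, against 152 and 145 CPM in eya sorted cells, a difference of 0.27 ± 0.37 (adjusted p = 0.656). Its partners of the same gene network, so and Six4, differed by -0.05 ± 0.34 and -0.27 ± 0.35, also not called. All 3 genes were higher in each of the 4 sorted libraries than in any suspension.

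**Figure D1:**
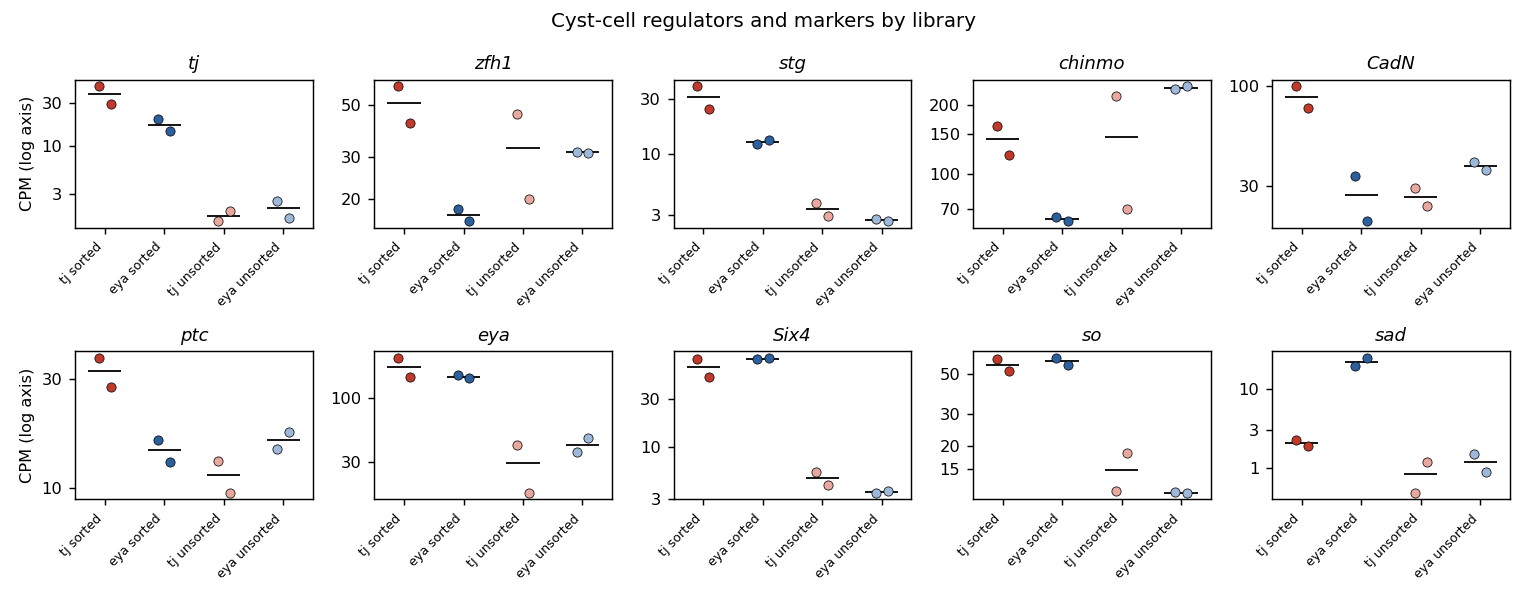
CPM of 10 cyst cell genes in each library (log axis), with tj sorted left of eya sorted and the 2 unsorted groups to their right; points are libraries and bars are group means. tj, zfh1, stg, chinmo, CadN and ptc are higher in both tj sorted libraries, eya, Six4 and so overlap between the sorted groups, and sad is at 2.24 and 1.89 CPM in tj sorted cells and at 19.7 and 24.4 CPM in eya sorted cells.

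Across all genes the sizes were similar in both directions, and the median of all genes was 0.11 (0.29 when libraries were scaled by summed counts only). Of the 711 rises 615 were at least 2-fold and 108 at least 4-fold, and of the 567 falls 515 and 130. Groups that did not overlap were common without a call, since tj sorted libraries were above both eya sorted ones for 3393 genes (29.0%) and below them for 3317 (28.4%). With other scaling in edgeR the split between rises and falls was 487 and 631 (upper-quartile factors) or 580 and 577 (RLE size factors), and with DESeq2, which also changes the test, it was 354 and 547. The number of calls turned on single libraries: it was 1878 rises and 1458 falls without tj sorted replicate 1, 348 and 330 without tj sorted replicate 2, 188 and 185 without eya sorted replicate 1, and 69 and 77 without eya sorted replicate 2. Fitted with the suspensions, so that all 8 libraries shared 1 estimate of spread, 3 rises and 11 falls remained, na and Zip42C.1 among them. A set of 22 rises and 67 falls was called whichever sorted library was left out, a selection made after the values were seen. Their median log2 fold changes were 2.25 for the rises and -2.31 for the falls.

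**Figure D2:**
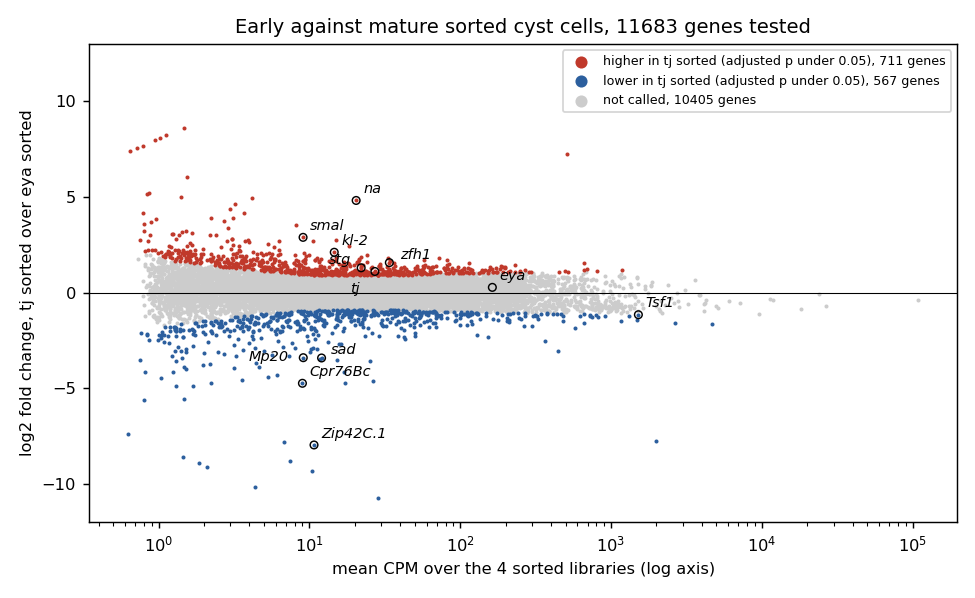
Log2 fold change of tj sorted over eya sorted cells against mean CPM over the 4 sorted libraries (log axis), 1 point per gene for 11683 genes; red and blue points are called higher and lower in tj sorted cells. The 711 rises lie above 0 and the 567 falls below it, with tj at 1.10, eya at 0.27 and sad at -3.42.

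Single genes were picked from those with a mean of at least 5 CPM over the sorted libraries, groups that did not overlap and a symbol that is not a number, and the largest of these falls were in genes with few reads in tj sorted cells. Zip42C.1 (FBgn0033096, chr2R:6716342-6717707), a zinc transporter of the ZIP family, had 3 reads over the tj sorted libraries, against 592 over the eya sorted ones. The scaled ratio of eya over tj was 295 (95% interval 100.4 to 1434, exact, counting error only). In CPM it stood at 0.149 and 0.0386 in tj sorted cells, against 17.1 and 25.7 in eya sorted cells, and at 0.0748 to 0.706 in the suspensions (adjusted p = 5.49e-43). It was not tested without either eya library, because the remaining one alone could not pass the filter on low counts. Cpr76Bc (FBgn0036880, chr3L:19520945-19527272), a chitin-binding cuticle protein of the CPR family, stood at 1.12 and 0.309 CPM in tj sorted cells, against 17.5 and 17.1 CPM in eya sorted cells. The fall was -4.74 ± 0.43 (adjusted p = 6.07e-25), and the suspensions were at 0.75 to 1.795 CPM, so of all 4 groups the eya sorted cells alone held this transcript in quantity. The same held for Teh1, an auxiliary subunit of voltage-gated sodium channels, at 1.27 and 1.35 CPM in tj sorted cells, against 13.3 CPM in each eya sorted library (-3.32 ± 0.41, adjusted p = 1.25e-13). TwdlT, a cuticle protein of the Tweedle family, stood at 5.36 and 3.36 CPM in tj sorted cells, against 23.6 and 32.6 CPM in eya sorted cells (-2.70 ± 0.35, adjusted p = 2.12e-12). Cpr76Bc, Teh1 and TwdlT were called whichever sorted library was left out.

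Several genes known only by number, named after their values were seen, were also much lower in tj sorted cells. CG15674 stood at 2.46 and 1.78 CPM in tj sorted cells, against 43.3 and 58.6 CPM in eya sorted cells, and at 1.74 to 3.74 CPM in the suspensions (-4.60 ± 0.39, adjusted p = 1.41e-29). CG14219 stood at 1.49 and 1.08 CPM in tj sorted cells, against 28.5 and 38.2 CPM in eya sorted cells, and at 0.187 to 0.938 CPM in the suspensions (-4.72 ± 0.39, adjusted p = 3.65e-30). CG6409 was abundant, at 115.3 and 77.2 CPM in tj sorted cells, against 638 and 944 CPM in eya sorted cells (-3.03 ± 0.42, adjusted p = 8.78e-11). The calls of all 3 held without each sorted library in turn.

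Other large falls were in genes of contractile muscle. The testis is wrapped in a muscle sheath, and 12 of the 18 muscle markers tested were lower in tj sorted cells and none higher, with a median of -1.74. Mp20, a calponin-like muscle protein, stood at 2.01 and 1.198 CPM in tj sorted cells, against 17.1 and 16.2 CPM in eya sorted cells (-3.40 ± 0.39, adjusted p = 9.22e-16). Act57B, a muscle actin, stood at 23.1 and 14.9 CPM in tj sorted cells, against 81.3 and 82.0 CPM in eya sorted cells (-2.10 ± 0.35, adjusted p = 3.06e-07). Mhc, the muscle myosin heavy chain, stood at 27.8 and 15.9 CPM in tj sorted cells, against 85.4 and 68.4 CPM in eya sorted cells (-1.81 ± 0.35, adjusted p = 1.47e-05). The tj sorted libraries were lower than the eya sorted ones, and both were below the suspensions, where Mhc stood at 134 to 269 CPM. Across the list, tj sorted cells were below all 4 suspensions for 14 of the 18 genes, within their range for 3 and above them for 1. Eya sorted cells were below them for 8, within their range for 10 and above them for 0. Of all genes tested, 15.2% were below all 4 suspensions in tj sorted cells and 31.7% in eya sorted cells. The fall count was 14, 10, 8 and 7 of the list without tj sorted replicates 1 and 2 and eya sorted replicates 1 and 2. All 18 muscle markers passed the filter of at least 1 CPM in at least 2 sorted libraries. The sum over the list was 840 and 783 CPM in tj sorted cells, against 1056 and 879 CPM in eya sorted cells. Other falls held in every such fit included Mlc1, a myosin light chain (-2.64 ± 0.39, adjusted p = 1.48e-09), Mlp84B, a muscle LIM protein (-2.59 ± 0.35, adjusted p = 2.9e-11), and l(2)efl, a small heat shock protein abundant in muscle (-3.47 ± 0.37, adjusted p = 6.84e-18). In eya sorted cells all 3 lay within the range of the suspensions. What share of any fall came from muscle was not tested, and in bulk RNA fewer cells of a type and less RNA per cell cannot be told apart.

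Of 24 integrin and basement membrane genes 3 fell and 1 rose (median -0.35), beside 4.85% and 6.09% of all genes. The collagen IV chains Col4a1 and vkg, which hemocytes, fat body and muscle also make, fell by 1.70 ± 0.34 and 1.85 ± 0.33 on the log2 scale (adjusted p = 5.1e-05 and 2.98e-06), and both were called without each sorted library in turn. Col4a1 stood at 24.1 and 19.4 CPM in tj sorted cells, against 76.6 and 65.3 CPM in eya sorted cells. The suspensions ranged from 52.7 to 291 CPM. Ppn, which encodes the matrix protein papilin, fell by 1.18 ± 0.32 (adjusted p = 0.00665), a call lost without either eya library (adjusted p = 0.19 and 0.082). LanB2, the laminin gamma chain, went the other way, at 88.5 and 53.1 CPM in tj sorted cells, against 35.4 and 23.5 CPM in eya sorted cells (1.28 ± 0.34, adjusted p = 0.0051, but 0.085 and 0.65 without eya sorted replicates 1 and 2). LanB2 also differed before the sort, at 58.0 and 57.8 CPM in tj unsorted libraries, against 25.3 and 29.5 CPM in eya unsorted ones. Of 9 hemocyte markers 1 rose and 1 fell, and the hemocyte genes NimC1 and Hml differed by -1.52 ± 0.61 and -0.51 ± 0.33, not called. NimC4, an engulfment receptor for apoptotic cells, fell by 3.28 ± 0.43 (adjusted p = 1.13e-11), with 0.745 and 1.28 CPM in tj sorted cells, against 8.03 and 12.5 CPM in eya sorted cells. Of 7 markers of pigment cells and terminal epithelium 3 fell as well (median -1.12), led by Sox100B, a Sox transcription factor, at 0.596 and 1.39 CPM in tj sorted cells, against 6.59 and 4.89 CPM in eya sorted cells (-2.43 ± 0.48, adjusted p = 3.16e-05). The other 2, ry and Pu, which act in pteridine and purine metabolism, were not called without eya sorted replicate 1 or 2 (adjusted p = 0.15 to 0.26).

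**Figure D3:**
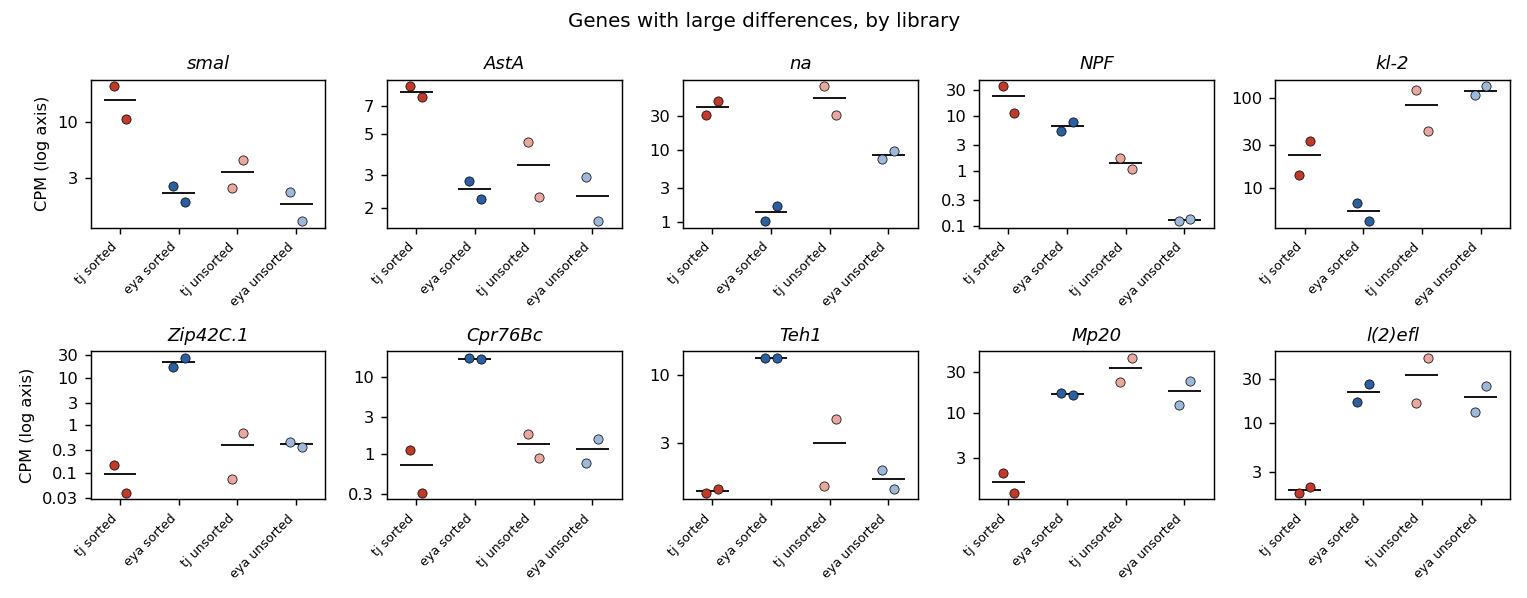
CPM of 10 genes with large differences, by library (log axis), tj sorted left of eya sorted and the unsorted groups to their right; points are libraries and bars are group means. Zip42C.1, Cpr76Bc and Teh1 are high in eya sorted cells alone, Mp20 and l(2)efl are low in tj sorted cells alone, and na and NPF are also higher in tj unsorted than in eya unsorted libraries.

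Among the rises were genes of cell division. Of 38 mitosis genes 11 rose and none fell, 37 had a positive fold change, and the median was 0.73. sti, the citron kinase of cytokinesis, stood at 31.7 and 33.9 CPM in tj sorted cells, against 13.5 and 10.98 CPM in eya sorted cells (1.44 ± 0.33, adjusted p = 0.000515). SMC2, a condensin subunit, stood at 24.7 and 25.3 CPM in tj sorted cells, against 7.92 and 11.8 CPM in eya sorted cells (1.34 ± 0.33, adjusted p = 0.00138). The spindle protein asp rose by 1.42 ± 0.35 and the centralspindlin subunit tum by 1.28 ± 0.33 (adjusted p = 0.00165 and 0.0038). Of 39 DNA replication genes 7 rose and none fell, with a median of 0.38. They were 5 minichromosome maintenance genes (dpa, Mcm5, Mcm6, Mcm7 and Mcm10), the helicase cofactor CDC45L and the polymerase subunit DNApol-epsilon255. Mcm10 stood at 26.7 and 29.7 CPM in tj sorted cells, against 10.8 and 13.7 CPM in eya sorted cells (1.21 ± 0.32, adjusted p = 0.0051). Claspin, the replication checkpoint adaptor, is on neither list and rose further than any of these genes, at 10.3 and 7.30 CPM in tj sorted cells, against 1.44 and 2.59 CPM in eya sorted cells and 1.92 to 2.58 CPM in the suspensions (2.08 ± 0.41, adjusted p = 3.3e-05), and was called whichever sorted library was left out. None of 15 G1 and endocycle genes was called, and Cyclin E (CycE) differed by 0.66 ± 0.32 (adjusted p = 0.171).

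The mitosis rises numbered 21 and 8 without tj sorted replicates 1 and 2, and 2 and 1 without eya sorted replicates 1 and 2. The replication rises numbered 12, 5, 1 and 0 in the same order, with medians of 0.33 to 0.62. Only 4 of the 38 mitosis genes were higher in tj sorted cells than in every suspension, against 21 of the 39 replication genes. In eya sorted cells these numbers were 4 and 17. Of all genes tested, 32.9% were above every suspension in tj sorted cells and 35.0% in eya sorted cells.

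Dividing germ cells express these mitosis and replication genes too, and germline markers were among the rises. Of 14 early germline markers 6 rose and none fell (median 0.96). zpg, the innexin 4 of germline gap junctions, stood at 5.14 and 6.84 CPM in tj sorted cells, against 1.85 and 1.39 CPM in eya sorted cells (1.92 ± 0.46, adjusted p = 0.000977). vas, the germline helicase Vasa, stood at 10.5 and 12.2 CPM in tj sorted cells, against 4.53 and 6.39 CPM in eya sorted cells (1.06 ± 0.35, adjusted p = 0.0306). bam, which starts germ cell differentiation, stood at 7.004 and 7.46 CPM in tj sorted cells, against 2.37 and 4.71 CPM in eya sorted cells (1.01 ± 0.39, adjusted p = 0.0727). All 17 spermatocyte markers had a positive fold change (median 0.73) and 3 were called, can, topi and bol, which act in the meiotic transcription program and meiotic entry. All markers of both lists passed the filter of at least 1 CPM in at least 2 sorted libraries. Summed over the spermatocyte list, tj sorted cells held 1943 and 3947 CPM, against 1732 and 1616 CPM in eya sorted cells, with 2693 to 5660 CPM in the suspensions. Summed over the early germline list, which tud and Rbp9 dominate in sorted cells, tj sorted cells held 1392 and 899 CPM, against 1207 and 840 CPM in eya sorted cells. The spermatocyte median was 1.05 without tj sorted replicate 1 and 0.28 without tj sorted replicate 2, where its calls were lost. No call of either list was kept without eya sorted replicate 2, in a fit that called few genes of any kind. How much of the mitosis and replication rises came from germ cells was not tested.

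The Y chromosome carries genes used by spermatocytes for the sperm tail, and of its 11 genes tested 6 rose, none fell and all 11 were positive (median 1.10). kl-2, an axonemal dynein heavy chain, stood at 14.0 and 33.3 CPM in tj sorted cells, against 6.89 and 4.34 CPM in eya sorted cells (2.11 ± 0.34, adjusted p = 9.12e-08), and was called whichever sorted library was left out. kl-3 and kl-5, which encode further dynein heavy chains, rose by 1.78 ± 0.33 and 1.55 ± 0.34 (adjusted p = 7.99e-06 and 0.000216). In the suspensions kl-2 stood at 43.2 to 134 CPM, above every sorted library. Without eya sorted replicate 2, kl-2 was the 1 Y-linked gene still called, and without tj sorted replicate 2 the number was 3, with 9 of the 11 positive and a median of 0.64. Other rises in testis genes were klhl10, a ubiquitin ligase adaptor of spermatids (1.94 ± 0.34, adjusted p = 9.18e-07), Pzl, a relative of the Piezo channels (1.95 ± 0.40, adjusted p = 6.01e-05), and Nxf3, an export factor for piRNA precursors (1.87 ± 0.41, adjusted p = 0.000248). The calls of klhl10, Pzl and Nxf3 were lost without eya sorted replicate 2 (adjusted p = 0.25, 0.29 and 0.41).

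Among the rises that were not germline genes by any list, smal (FBgn0085409, chr2L:6179133-6211114) stood at 21.4 and 10.6 CPM in tj sorted cells, against 2.57 and 1.81 CPM in eya sorted cells and 1.21 to 4.47 CPM in the suspensions. The rise was 2.89 ± 0.38 (adjusted p = 1.1e-11) and was called whichever sorted library was left out. The neuropeptide gene AstA, which encodes allatostatin A, stood at 8.94 and 7.84 CPM in tj sorted cells, against 2.78 and 2.23 CPM in eya sorted cells (1.76 ± 0.41, adjusted p = 0.000623, but 0.16 without eya sorted replicate 2). The genes picked by the same limits, among those without an unsorted difference, included the cytochrome P450 genes Cyp6a8 (2.23 ± 0.40), Cyp310a1 (1.78 ± 0.34) and Cyp4ad1 (1.74 ± 0.35). The last 2 were called whichever sorted library was left out, and Cyp6a8 was not without tj sorted replicate 1 (adjusted p = 0.059) or eya sorted replicate 2 (0.052). Across 61 P450 genes 5 rose and 4 fell (median -0.18), beside 6.09% and 4.85% of all genes.

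Of the signalling lists, most had 0 to 2 called members, beside 10.9% of all genes called either way. Wnt4, a Wnt ligand, stood at 89.6 and 55.9 CPM in tj sorted cells, against 29.8 and 34.5 CPM in eya sorted cells and 7.004 to 16.9 CPM in the suspensions (1.18 ± 0.34, adjusted p = 0.0115), the 1 call among 21 Wnt genes. br, an early response factor to ecdysone, stood at 32.3 and 21.1 CPM in tj sorted cells, against 9.67 and 10.9 CPM in eya sorted cells (1.38 ± 0.33, adjusted p = 0.000934), the 1 call among 16 ecdysone response genes. Both calls were lost without eya sorted replicate 1 (adjusted p = 0.31 for Wnt4 and 0.10 for br) and replicate 2 (0.38 and 0.12). Of 12 genes of ecdysteroid synthesis and breakdown, dib fell with sad (-1.80 ± 0.60, adjusted p = 0.031) and sro rose (2.09 ± 0.62, adjusted p = 0.0145), but dib and sro were at no more than 3.20 CPM in any sorted library. dib had an adjusted p of 0.067 without tj sorted replicate 1 and was not tested without an eya library, and sro had 0.31 and 0.098 without eya sorted replicates 1 and 2 and was not tested without a tj library.

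In the Hippo list of 16 genes, ft and ds, the giant cadherins Fat and Dachsous that bind each other between cells, rose together, by 1.37 ± 0.38 and 1.37 ± 0.45 (adjusted p = 0.00684 and 0.028). Of 15 Hedgehog genes ptc and cos rose, and of 22 BMP and TGF-beta genes the ligand mav (0.96 ± 0.34) and the repressor brk (1.14 ± 0.38). Of 18 Notch genes sno and the ligand Ser rose, Ser at 7.53 and 15.9 CPM in tj sorted cells, against 4.43 and 3.86 CPM in eya sorted cells (1.53 ± 0.36, adjusted p = 0.000906, but 0.21 without tj sorted replicate 2). Among 14 JAK-STAT genes chinmo rose and the ligand upd2 fell, with 0.745 and 1.70 CPM in tj sorted cells, against 2.98 and 4.95 CPM in eya sorted cells (-1.64 ± 0.49, adjusted p = 0.0145). Of 20 insulin and TOR genes 2 fell, Lst and the insulin-like peptide gene Ilp7 (-1.49 ± 0.36, adjusted p = 0.00112). Ilp7 stood at 0.0748 and 0.0785 CPM in tj unsorted libraries, against 0.313 and 0.179 CPM in eya unsorted ones. These levels rest on few reads and are below the filter of 1 CPM, so Ilp7 was not tested in the suspensions. Lst, the limostatin hormone that holds back insulin release, stood at 24.0 and 22.02 CPM in tj sorted cells, against 47.2 and 80.4 CPM in eya sorted cells and 0.804 to 5.26 CPM in the suspensions (-1.46 ± 0.34, adjusted p = 0.000623, but 0.41 without eya sorted replicate 2). None of 20 EGFR genes and none of 10 Hox genes and cofactors was called, against 10.9% of all genes. No call in the Wnt, ecdysone response, Hippo, Hedgehog, BMP, Notch, JAK-STAT or insulin lists was kept without eya sorted replicate 2. That fit called few genes of any kind. The medians of these lists in it were between -0.05 (JAK-STAT) and 0.26 (Notch), against 0.09 for all genes tested.

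The counts of cell junction and somatic piRNA genes stand beside 6.09% rises and 4.85% falls over all genes. Of 26 septate junction genes, the seals of the mature cyst, crok and crim fell by 0.99 ± 0.34 and 1.06 ± 0.33 (adjusted p = 0.0377 and 0.0205) and none rose. The median was -0.05, and its sign turned with the scaling, from -0.11 to 0.11. Without tj sorted replicate 1 the falls numbered 10, and without any other sorted library 0. Of 20 adherens and gap junction genes CadN and zpg rose and Inx7, an innexin, fell (-0.98 ± 0.33, adjusted p = 0.0341). In the somatic piRNA list of 18 genes, SoYb, Hen1 and CG14438 rose by 0.97 to 1.001, and piwi, the nuclear effector of the pathway, missed the threshold at 0.93 ± 0.35 (adjusted p = 0.0622). fs(1)Yb, the organizer of the somatic Yb body, differed by 0.18 ± 0.33 (adjusted p = 0.754). Without eya sorted replicate 2, none of the somatic piRNA, septate, or adherens and gap junction genes was called.

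**Figure D4:**
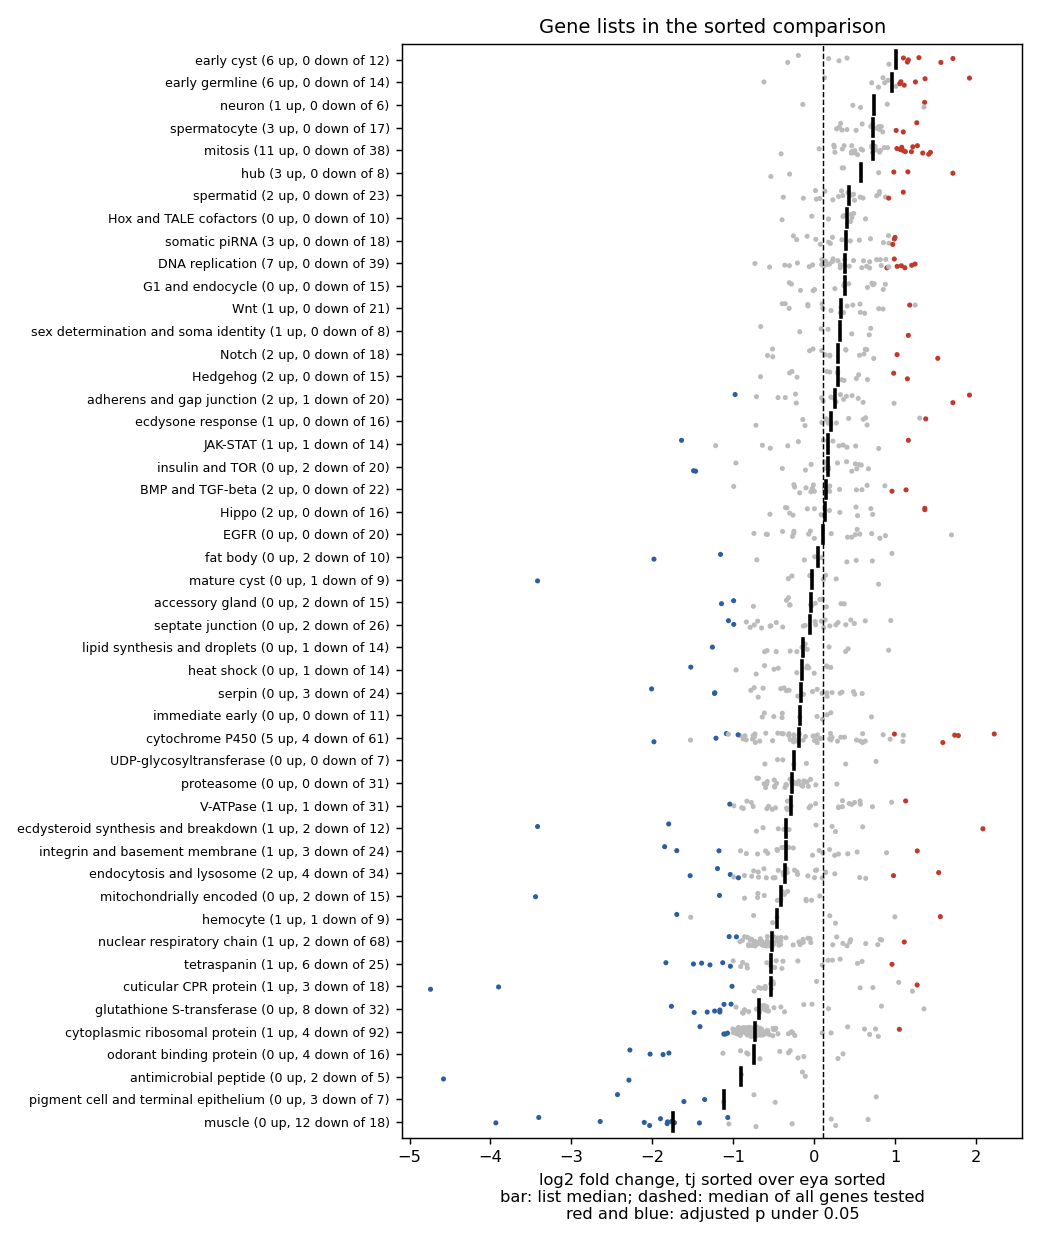
Log2 fold change of tj sorted over eya sorted cells for each tested gene of 48 lists, ordered by list median (black bar); red and blue points are called higher and lower, and the dashed line is the median of all genes tested, 0.11. Early cyst, early germline, spermatocyte and mitosis lists sit to the right, and muscle, pigment cell, odorant binding, ribosomal protein and glutathione S-transferase lists to the left.

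Several gene families had more falls than rises in tj sorted cells. Over all genes, 4.85% fell and 6.09% rose. Of 32 glutathione S-transferase genes 8 fell and none rose (median -0.68). GstE1 stood at 145 and 125 CPM in tj sorted cells, against 451 and 473 CPM in eya sorted cells and 23.6 to 55.2 CPM in the suspensions (-1.76 ± 0.39, adjusted p = 0.000284, but 0.07 and 0.15 without eya sorted replicates 1 and 2). Of 16 odorant binding proteins, small secreted carriers, 4 fell (median -0.74). Obp56d stood at 9.54 and 6.53 CPM in tj sorted cells, against 38.1 and 39.8 CPM in eya sorted cells (-2.28 ± 0.34, adjusted p = 3.23e-09), and was called whichever sorted library was left out. Of 25 tetraspanins, membrane proteins with 4 passes, 6 fell and 1 rose (median -0.53), with Tsp42El at -1.83 ± 0.35 (adjusted p = 1.69e-05) holding in every leave-one-out fit. The defence peptide genes Drs (drosomycin) and Def (defensin) fell by 2.29 ± 0.36 and 4.58 ± 0.57 (adjusted p = 2.37e-08 and 2.83e-13), the 2 calls among 5 antimicrobial peptide genes tested. Def was not tested without either eya library.

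Of 34 endocytosis and lysosome genes 4 fell and 2 rose (median -0.36), beside 4.85% and 6.09% of all genes. CtsB1, which encodes cathepsin B, stood at 543 and 416 CPM in tj sorted cells, against 962 and 1246 CPM in eya sorted cells (-1.19 ± 0.40, adjusted p = 0.0327). Npc2a, a sterol carrier of the lysosome, stood at 126 and 88.98 CPM in tj sorted cells, against 241 and 384 CPM in eya sorted cells (-1.53 ± 0.38, adjusted p = 0.00191). Neither was called without eya sorted replicate 2 (adjusted p = 0.77 and 0.56) or replicate 1 (0.29 and 0.054). The iron carrier Tsf1 was among the most abundant transcripts that changed, at 1188 and 687 CPM in tj sorted cells, against 1863 and 2343 CPM in eya sorted cells (-1.16 ± 0.41, adjusted p = 0.0468, but 0.15 without tj sorted replicate 2 and 0.35 and 0.81 without eya sorted replicates 1 and 2). Of 92 cytoplasmic ribosomal protein genes 4 fell and 1 rose, shares no higher than the 4.85% and 6.09% of all genes. Their median was -0.73, and 82 of them were higher in both eya sorted libraries, as were 28.4% of all genes. Without tj sorted replicate 1, 68 of them fell, and without the other sorted libraries 1, 0 and 0.

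Of the markers of other cells, 3 of 8 hub genes rose (CadN, dac and esg, median 0.58), as did 2 of 23 spermatid genes (soti and sunz, median 0.43) and 1 of 6 neuron genes (brp). The spermatid median rested on the tj sorted libraries: it was 0.77 with 12 rises without replicate 1, and -0.14 with 0 rises without replicate 2. Of 15 accessory gland genes Est-6 and Dup99B fell, and of 10 fat body genes Tsf1 and Cyp4g1. The counts that follow stand beside 6.09% rises and 4.85% falls over all genes. Among the lists of cell physiology, 1 of 31 V-ATPase genes rose and 1 fell, 1 of 68 nuclear respiratory chain genes rose and 2 fell, and 2 of 15 mitochondrially encoded genes fell. Of 18 cuticular CPR genes 1 rose and 3 fell, of 24 serpins 3 fell, and of 14 genes each of the lipid and heat shock lists 1 fell. The lipid gene was Jabba, a lipid droplet protein, at 11.2 and 11.1 CPM in tj sorted cells, against 23.7 and 29.9 CPM in eya sorted cells (-1.26 ± 0.32, adjusted p = 0.00306, but 0.28 without eya sorted replicate 2). Of 8 genes of sex determination and soma identity chinmo rose. None of 11 immediate early, 31 proteasome and 7 UDP-glycosyltransferase genes was called. Of the calls in these lists, only that of Cpr76Bc, a CPR gene that fell, was kept without eya sorted replicate 2. That fit called few genes of any kind.

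Further large changes were Dhit, at 21.5 and 22.02 CPM in tj sorted cells, against 6.998 and 6.27 CPM in eya sorted cells (1.73 ± 0.34), a call that missed the threshold without eya sorted replicate 2 (adjusted p = 0.051). Neurochondrin stood at 2.61 and 2.59 CPM in tj sorted cells, against 18.6 and 21.2 CPM in eya sorted cells (-2.93 ± 0.36, adjusted p = 2.19e-13). Acp24A4, an accessory gland protein, stood at 2.01 and 1.82 CPM in tj sorted cells, against 9.16 and 18.9 CPM in eya sorted cells (-2.88 ± 0.38, adjusted p = 1.86e-11). Ance-2, of the angiotensin converting enzyme family, stood at 2.46 and 4.21 CPM in tj sorted cells, against 15.1 and 22.1 CPM in eya sorted cells (-2.45 ± 0.35, adjusted p = 7.41e-10), and was also lower in tj unsorted libraries, at 0.411 and 0 CPM, against 1.06 and 0.715 CPM in eya unsorted ones. Neurochondrin, Acp24A4 and Ance-2 were called whichever sorted library was left out.

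Gene length moved with the calls. The median length was 2251 nt for genes that rose, 1311 nt for genes that fell and 1772 nt for genes not called. In the top decile of gene length, 1169 genes of 4989 to 71382 nt, 128 rose and 17 fell and the median fold change was 0.44. Over all genes, 6.09% rose and 4.85% fell. There the libraries deviated from their common mean by 0.34 and 0.04 in tj sorted replicates 1 and 2, against 0.01 and -0.41 in eya sorted replicates 1 and 2, in medians on the log2 scale, so tj sorted replicate 1 and eya sorted replicate 2 lay furthest apart. Without eya sorted replicate 2 the median of the top decile was 0.23, with 843 of 1161 genes positive, against 0.09 for all genes tested. It was 0.22 and 0.56 without tj sorted replicates 1 and 2, and 0.66 without eya sorted replicate 1. With each library's trend with length taken out, an alternative added after the data were seen, 565 rises and 616 falls were called and 1024 of the 1278 called genes were called again. The muscle list then had 11 falls, the mitosis list 8 rises and the early cyst list 5 rises, chinmo being lost (adjusted p = 0.21). Long genes include ft and ds (adjusted p = 0.16 and 0.20 with the trend removed), kl-2 and CadN (CadN at 0.008). Whether length caused any of these differences was not tested.

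Of 918 ncRNA genes 124 rose and 19 fell (13.5% and 2.07%, beside 6.09% and 4.85% of all genes). Their median was 0.45, and without tj sorted replicate 2 it was 0.07 with 22 rises. Of 30 snoRNA genes 8 rose and none fell, and 1 of them rose without eya sorted replicate 2. Mature snoRNAs carry no poly(A) tail, and poly(A)+ selection keeps few of them.

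Some differences were present before the sort. The suspensions were compared as a check on the crosses, with 0 of 11970 genes (0.0%) called by edgeR, 490 at an unadjusted p under 0.05, 0 by limma and 181 by DESeq2. The difference between the sorted and the unsorted comparison, tested as an interaction over all 8 libraries, had 0 of 12526 genes (0.0%) called, with 1838 at an unadjusted p under 0.05 and a lowest adjusted p of 0.118. No sorted difference was therefore shown to differ from its unsorted counterpart. Without tj unsorted replicate 1 these fits gave 4635 and 4182 calls, and without tj unsorted replicate 2, the library that stood apart, 66 and 62. A rule on the values took genes at least 2-fold apart without overlap between the unsorted groups. It also took genes with a mean under 0.1 CPM in 1 unsorted group and at least 1 CPM in the other. By this rule 87 of the 711 rises (12.2%) were also higher in tj unsorted libraries, against 8.43% of all genes. A further 5 were lower, against 1.85% of all genes. Of the 567 falls 39 (6.88%) were also lower in tj unsorted libraries and 102 (17.99%) were higher. Without tj unsorted replicate 2 the falls that ran the same way numbered 71 (12.5%) and those that ran the other way 52 (9.17%). The rule then rested on a single tj unsorted library and lacked its part on means under 0.1 CPM, so these counts are not from the same rule. The share of all genes meeting this reduced rule was not computed.

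The largest rise picked by the limits on level and symbol had such a difference. na (FBgn0002917, chrX:14266367-14277416), the sodium leak channel narrow abdomen, stood at 31.0 and 48.0 CPM in tj sorted cells, against 1.03 and 1.69 CPM in eya sorted cells (4.82 ± 0.40, adjusted p = 3.65e-30). In the suspensions it stood at 77.3 and 30.8 CPM in tj unsorted libraries, against 7.63 and 9.65 CPM in eya unsorted libraries. Anp, the antibacterial peptide andropin of the male ejaculatory duct, rose by 2.41 ± 0.34 (adjusted p = 4.17e-10), with 36.7 and 25.5 CPM in tj sorted cells, against 4.73 and 6.88 CPM in eya sorted cells, and differed by 2.34 in the suspensions. DopEcR, a receptor for dopamine and ecdysteroids, and Arr1, an arrestin of phototransduction, rose by 2.39 ± 0.41 and 1.91 ± 0.35 (adjusted p = 9.18e-07 and 6.21e-06) and differed by 3.25 and 1.31 in the suspensions. na, Anp, DopEcR and Arr1 were called whichever sorted library was left out. The neuropeptide gene NPF was above all suspensions in every sorted library, at 35.1 and 11.4 CPM in tj sorted cells, against 5.35 and 7.90 CPM in eya sorted cells (1.79 ± 0.33, adjusted p = 7.99e-06, but 0.11 without tj sorted replicate 1). It too was higher in tj unsorted libraries, at 1.76 and 1.10 CPM, against 0.125 and 0.134 CPM in eya unsorted ones.

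A pair of noncoding RNAs, named after their values were seen, differed between the crosses in sorted and unsorted libraries alike. lncRNA:CR40469 stood at 1316 and 707 CPM in tj sorted cells, against 8.75 and 4.65 CPM in eya sorted cells, and at 119 and 661 CPM in tj unsorted libraries, against 1.19 and 0.625 CPM in eya unsorted ones. lncRNA:CR34335 ran the other way, at 22.6 and 13.3 CPM in tj sorted cells, against 2988 and 4922 CPM in eya sorted cells, and at 3.18 and 17.6 CPM in tj unsorted libraries, against 203 and 143 CPM in eya unsorted ones. Of the 22 rises called whichever sorted library was left out, 11 had an unsorted difference of the same sign by the rule above, and of the 67 such falls 3 had one. sad, Zip42C.1, Cpr76Bc, smal, Claspin, zfh1 and stg had none.

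**Figure D5:**
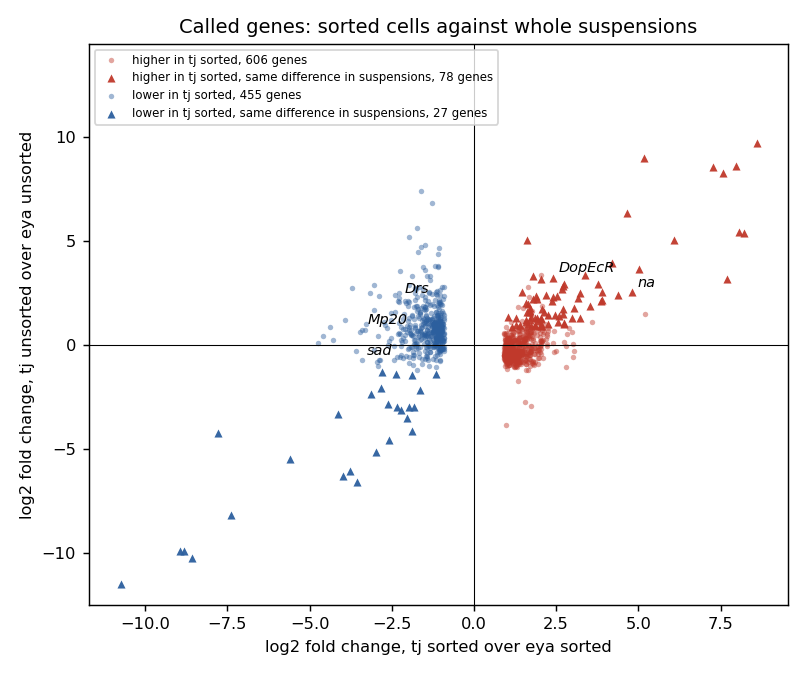
Log2 fold change between the unsorted libraries (vertical) against that between the sorted libraries (horizontal), each tj over eya. Points are the 684 rises and 482 falls with a value in both. Triangles are genes with an unsorted difference in the same direction by the rule in the text. The median unsorted fold change is -0.27 for the rises and 0.66 for the falls, and na and DopEcR are among the triangles.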

How the data were processed

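RNA was measured in 8 libraries, 2 in each of 4 groups taken from the labels. Per the labels' protocols the libraries were made from poly(A)+ RNA with a directional kit. The submitters' processing notes name FastQC, Bowtie 1.2.2, HTSeq, DESeq2 and dm6; no source used here gives the strand setting of the counting, so overlapping and antisense genes are uncertain. The deposited values are raw read counts per gene for 16018 genes, not normalized by the authors. Another 28 columns of per-sample values were not used. Gene IDs and coordinates come from the BDGP6 annotation (15164 genes matched by symbol, 798 by synonym, 56 not matched).

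The 4 sorted libraries were fitted alone with edgeR 4.0.16 (R 4.3.3; TMM factors, quasi-likelihood test, 2 residual degrees of freedom), on genes with at least 1 CPM in at least 2 libraries. Printed CPM use TMM factors over all 8 libraries. The suspensions alone, and the interaction over all 8 libraries, were fitted the same way. Alternatives included limma 3.58.1 (log2 of CPM + 1) and DESeq2 1.42.0. Leaving out a library leaves 1 in its group, which is then assumed to vary like the other group.

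Genes were named by rule: the markers, the 12 largest changes each way without and the 6 largest with an unsorted difference (mean CPM of at least 5, groups not overlapping, a symbol that is not a number), and the 4 genes of each of 48 lists with the smallest p. Further list members and genes were named after their values were seen. The genes, lists and tests were chosen with earlier results of these data known. On simulated counts for 11490 genes of the sorted comparison, the fit recovered 20.8% of 96 genes changed 2-fold and 92.8% of 97 changed 4-fold, and called 4 of 11297 unchanged genes. A smaller share of genes was changed there than the 10.9% called in the data, and no trend with gene length was put in. These rates may therefore differ from those in the data.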

Additional observations from a re-analysis of the deposited data

How the results depend on the processing

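The 711 rises and 567 falls in tj sorted cells became 354 rises with DESeq2, 429 rises and 237 falls with summed counts only, 3 and 11 when all 8 libraries shared 1 spread, and 55 and 100 when a change above 2-fold was tested. With 1 sorted library left out, rises ranged from 69 to 1878 and falls from 77 to 1458. Other scalings, filters and limma gave 487 to 686 rises and 400 to 631 falls. The replicate block gave 638 and 552 calls, with 1128 of the 1278 shared. Across genes, the difference between replicates 1 and 2 in tj sorted cells had a correlation of 0.053 with that in eya sorted cells. With a single such difference per driver, this cannot show whether same-numbered samples were paired. For the suspensions, DESeq2 called 124 and 57 genes, the fit of all 8 libraries 3 and 6, and leaving out 1 library 0 to 2165 and 0 to 2470. The interaction had 1 fall with no low-count filter, and 0 to 1667 rises and 0 to 2515 falls with 1 library left out.

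Uncalled genes changed sign. With 1 sorted library left out, the log2 fold change ranged from -0.045 to 0.52 for eya, -0.63 to 0.0039 for Six4, -0.49 to 0.37 for IM3 (0.12 without tj sorted replicate 2), -1.89 to 0.55 for mt:ND4L, -1.45 to 0.022 for mt:ND2 and -1.60 to 0.054 for Ugt37c1. IM3 was at 0.039 with summed counts only and apolpp at -0.0047 with the length trend removed. The cause was not tested. In counts simulated at the depth and group size of these libraries, with few genes changed and no trend with gene length, 20.8% of 2-fold changes were called. Other depths, group sizes and shares of changed genes were not tested.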
